A study of Mus musculus with 96 samples.

Results

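Among barcoded mouse leukaemia clones followed after transplantation, 14 were large in a single mouse and below that size in every other recipient of the same leukaemia. A clone is taken here as the cells that share 1 integrated DNA barcode, and whether a cell carried several barcodes was not examined. The 14 were chosen by the measured values themselves, out of 2256 clones with reads in the pool of their own origin and 4675 barcodes in all. A clone counted as large where it reached 10000 CPM (barcode reads per 1000000 reads of the library, so that 10000 CPM is 1%) in bone marrow or spleen, and all of its large libraries had to come from 1 mouse. GFP_Barcode_94628, GFP_Barcode_20873 and mCHERRY_2_Barcode_74010 were set aside by name, and they reached this size in 4, 7 and 2 mice. Such a choice makes 1 mouse higher than the rest, so the values below are a description, with no test.

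The leukaemias were made from LSK cells (Lin- c-Kit+ Sca-1+, a stem and early progenitor fraction) or from GMP cells (granulocyte-monocyte progenitors) sorted from the marrow of female C57BL/6 donors 6 to 8 weeks old. Both were transduced with an MLL-AF9 retrovirus and with SPLINTR barcodes, so every mouse here carried MLL-AF9 cells. GFP barcodes marked the LSK-derived cells and mCHERRY barcodes the GMP-derived cells. Among Ptprca recipients, an immunocompetent strain, 3 mice received the LSK leukaemia, 4 the GMP leukaemia and 4 a mixture. NSG mice have no B, T or NK cells and were 4 of each kind, and the age of the hosts is not given. Hence an LSK clone could be read in 15 mice and a GMP clone in 16. The labels give 1 pool per origin and 1 mixed pool before transplantation, and do not say from how many donors each pool came.

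MLL-AF9 is a fusion oncogene that can let committed myeloid progenitors renew themselves. A heritable barcode lets the descendants of 1 transduced cell be followed by sequencing. Because sister cells of a barcoded clone can be given to several mice from the same pool, a clone that leads in many recipients can be told from one that leads in a single recipient. Clonal dominance, in which a few clones make up most of a leukaemia, is common after transplantation. CPM are shares: a larger clone and smaller neighbours in the same library cannot be told apart.

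Each of the 48 libraries rested on 4257581 to 8499553 reads, so 3 reads, the limit that a count of 0 allows, were 0.353 to 0.573 CPM in the tissue libraries. Clones reaching the minimum in any library were 28 of 1207 LSK pool clones (2.32%) and 20 of 1049 GMP pool clones (1.91%). Those large in 1 mouse only were 10 LSK clones (0.829%) and 4 GMP clones (0.381%), which is what the rule fixed. A further 6 clones were large in 2 mice and 28 in 3 or more. Of the 45 tissue libraries, 8 are doubted, because barcodes of the origin not transplanted made up 0.1% or more of the reads, or barcodes of no pool made up 1% or more. Only mCHERRY_2_Barcode_205626 had its highest value in such a library, and without those 8 libraries it was no longer chosen while the other 13 were. The spleens of mice 18 and 14 were also among the 8. They gave the other tissue of mCHERRY_2_Barcode_345275 and mCHERRY_2_Barcode_588934 in their leading mice. In mice given both leukaemias only barcodes of no pool could be counted as stray. GFP_Barcode_2523, GFP_Barcode_34023, mCHERRY_2_Barcode_896021 and mCHERRY_2_Barcode_345275 led in such mice. Reads carried over from another recipient of the same origin could not be seen in any mouse.

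The 14 clones differed widely in how far they stood apart from the next mouse. In 2 of them the leading mouse was more than 10-fold above every other mouse, in 7 it was 2- to 10-fold above the next, and in 5 it was less than 2-fold above it. In 7 the next mouse held 5000 CPM or more. Most were also small for large clones: 12 peaked below 20000 CPM and 9 below 12000 CPM. Mice given both leukaemias divide their reads between both origins, which lowers every clone there. As a share of the reads of their own origin alone, 10 of the 14 were still large in 1 mouse only, and GFP_Barcode_85168, GFP_Barcode_12105, mCHERRY_2_Barcode_896021 and mCHERRY_2_Barcode_205626 were not. The name of a sporadic winner therefore described few of them, and they are called one-mouse clones below.

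GFP_Barcode_148344 was by far the largest one-mouse clone. NSG mouse 9, a recipient of LSK cells, held it at 289216 CPM in marrow (95% interval by Wilson 288891 to 289540) and at 38894 CPM in spleen. It ranked first of all barcodes in that marrow and was the single one-mouse clone past the minimum in both tissues. The other 3 NSG recipients of LSK cells held 3.06, 0.39 and 0 CPM in marrow and 0, 0.773 and 0 CPM in spleen (mice 10, 11 and 12). Mouse 9 did not overlap its group in either tissue, which the rule fixed for a clone past the minimum in both. Over all 14 other recipients the highest value was 227 CPM, in the marrow of Ptprca mouse 1, and the median of the mouse maxima was 1.92 CPM. The clone was common before transplantation, at 10496 CPM of the LSK pool (rank 11 of 1209), so that its marrow share in mouse 9 was 27.6-fold the pool while all other mice lay below the pool.

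The 4 LSK clones that were large in all 15 recipients stood beside it in mouse 9. GFP_Barcode_100907 held 17.9% of that marrow, GFP_Barcode_29850 16.96%, GFP_Barcode_1859 16.3% and GFP_Barcode_7785 11.8%, against 28.9% for GFP_Barcode_148344. In the spleen of the same mouse GFP_Barcode_29850 held 33.9% and GFP_Barcode_100907 24.9%, and GFP_Barcode_148344 stood at 3.89%. Its marrow share was thus 7.44-fold its spleen share.

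GFP_Barcode_2523 was the other clone with a wide gap to the next mouse, and it lay near the middle of the LSK pool by rank. The mixed pool held it at 102 CPM and the LSK pool at 183 CPM (rank 554 of 1209), where the median of all LSK pool clones was 142 CPM. NSG mouse 23, given both leukaemias, held 17557 CPM in marrow and 132 CPM in spleen, 171-fold and 1.29-fold the mixed pool. In the marrow of NSG mice 21 and 22 it had 0 reads, and in the spleens of mice 21, 22 and 24 it stood at 0, 0.273 and 0 CPM. Its next highest mouse was Ptprca mouse 2 at 115 CPM, 153-fold lower, and only 4 of 14 other mice held more than 3 reads. As a share of the LSK reads alone, the marrow of mouse 23 held 26763 CPM of this clone.

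GFP_Barcode_68354 had the lowest pool level of the 14 and the largest rise over it. It stood at 64.4 CPM in the LSK pool (rank 751 of 1209), and in mouse 9 it reached 21492.5 CPM in spleen and 8459 CPM in marrow, 334-fold and 131-fold the pool. The other NSG recipients of LSK cells held 206, 2890 and 1217 CPM in marrow and 40.8, 623 and 962 CPM in spleen (mice 10, 11 and 12). Mouse 9 was highest in both tissues, and the marrow of mouse 11 was the highest library of any other recipient. In 11 of 15 recipients this clone was at or above the level of the pool given, so its rise was not limited to mouse 9. Mouse 9 thus held 2 one-mouse clones of opposite tissue order, GFP_Barcode_148344 higher in marrow and GFP_Barcode_68354 higher in spleen.

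GFP_Barcode_34023 was the most uneven between tissues. In NSG mouse 21, given both leukaemias, it held 12806 CPM of the spleen and had 0 reads in marrow. Against a limit of 3 reads (0.523 CPM in that marrow library), the spleen was at least 24485-fold higher. Marrow of mouse 22 held 2773 CPM and its spleen 169.5 CPM, the opposite order, while mouse 23 had 0 reads in both tissues and the spleen of mouse 24 held 47.7 CPM. Ptprca mouse 1 was next overall at 3234 CPM in marrow. This clone was abundant in the mixed pool at 4415 CPM, and mouse 21 was the only recipient at or above the pool level given.

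Ptprca mice given LSK cells were the leading mice of 6 clones, all of them in marrow. GFP_Barcode_814 held 17901, 480 and 3189 CPM in the marrow of mice 1, 2 and 3, and 943, 584 and 1894 CPM in their spleens. Mouse 1 was apart in marrow by 5.61-fold and lay between the other mice in spleen. GFP_Barcode_9096 also led in mouse 1, with 10754, 6666 and 2760 CPM in marrow and 3394, 1751 and 4395 CPM in spleen, so its spleen order was different, with mouse 3 highest. GFP_Barcode_85168 led in mouse 3, at 3950, 5385 and 11410 CPM in marrow and 2004, 2128 and 1498 CPM in spleen (mice 1, 2 and 3). In spleen, the leading mouse of GFP_Barcode_85168 was the lowest of the 3. Ptprca mouse 20, given both leukaemias, held 4295 CPM of this clone in marrow, which was 13249 CPM of its LSK reads against 11414 CPM in mouse 3, so on that scale the leading mouse changed and the clone was large in 2 mice.

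Mouse 2 alone was the leading mouse of 3 clones, each of which was more abundant in the LSK pool than in any mouse. GFP_Barcode_61835 was the second largest clone of the LSK pool at 25202 CPM, and the marrow of mouse 2 held it at 10857 CPM. Marrow of mice 1 and 3 held 46.9 and 18.04 CPM, and the 3 spleens 28.9, 59.7 and 36.7 CPM in the order of the mice. Elsewhere its highest value was 1565 CPM in the marrow of Ptprca mouse 17. Mouse 2 was therefore apart from all other recipients and still below the pool, which was 2.32-fold higher.

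GFP_Barcode_12105 was close to the minimum in several mice. Marrow of Ptprca mice 1, 2 and 3 held 9634, 11190.5 and 6776 CPM, against 17542 CPM in the pool, and their spleens 435, 662 and 983 CPM. Marrow of the 4 Ptprca mice given both leukaemias held 3756, 3112, 5483 and 2698 CPM (mice 17 to 20), where the mixed pool held 8912 CPM. NSG marrow ranged from 0 to 896 CPM. As a share of LSK reads, the marrow of mouse 19 held 15371 CPM and that of mouse 17 held 10042 CPM, against 11193 CPM in mouse 2. On that scale mouse 19 led and the clone was large in 3 mice. GFP_Barcode_86073 showed 3912, 10678 and 5022 CPM in the marrow of Ptprca mice 1, 2 and 3 and 238, 433 and 603 CPM in spleen, from 12051 CPM in the pool.

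Of the 4 GMP clones, 2 led in mice given both leukaemias. mCHERRY_2_Barcode_896021 reached 11251 CPM in the marrow of NSG mouse 21 and 193 CPM in its spleen. Marrow of mice 22 and 23 held 1406 and 37.9 CPM, and the spleens of mice 22, 23 and 24 held 735, 83.6 and 5262 CPM. NSG mouse 15, given GMP cells alone, followed at 8606 CPM in spleen, and 9 of 16 recipients were at or above the level of the pool given. As a share of GMP reads, mouse 21 marrow held 20067 CPM and mouse 24 spleen 11681 CPM, so on that scale the clone was large in 2 mice. mCHERRY_2_Barcode_345275 reached 10618 CPM in the marrow of Ptprca mouse 18, where mice 17, 19 and 20 held 5.19, 338.5 and 49.05 CPM. The spleens of mice 17 to 20 held 0.267, 41.1, 30.2 and 48.1 CPM, so mouse 18 was apart in marrow and not in spleen. NSG mouse 15 was again next, with 3545 CPM in spleen.

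The other GMP clones led in mice given GMP cells alone. mCHERRY_2_Barcode_588934 stood at 10537 CPM in the marrow of NSG mouse 14 and 383, 121 and 9.40 CPM in that of mice 13, 15 and 16. The spleen of mouse 14 held 17.9 CPM, below the spleens of mice 15 and 16 at 77.7 and 68.55 CPM and above that of mouse 13, with 0 reads. Its next mouse belonged to the other host, Ptprca mouse 5 with 8459 CPM in marrow, so the leading value was 1.25-fold above it. mCHERRY_2_Barcode_205626 was the third largest clone of the GMP pool, at 26043 CPM. Marrow of Ptprca mice 5 to 8 held it at 5997, 10194, 4994 and 9061 CPM, and their spleens at 1698, 809, 551 and 1893 CPM. Every one of these libraries was below the pool. Marrow of Ptprca mouse 17, given both leukaemias, held 7086 CPM, which was 11322 CPM of its GMP reads against 10293 CPM in mouse 6. On that scale mouse 17 led and the clone was large in 2 mice. The marrow of mouse 6 also held 0.944% of reads from the LSK library, which mouse 6 did not receive, and the part of that in this value was not tested.

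Set against the pool that each mouse was given, 10 of the 14 clones had risen at their highest and 4 had not. The rule fixed part of this, since a clone below 10000 CPM in the pool given had to rise to be chosen. Among the 5 clones at 10000 CPM or more in the pool of their origin, GFP_Barcode_148344 rose and the other 4 did not. Those below the pool were GFP_Barcode_12105, GFP_Barcode_61835, GFP_Barcode_86073 and mCHERRY_2_Barcode_205626, by 1.57-, 2.32-, 1.13- and 2.555-fold. They ranked 6, 2 and 9 among 1209 LSK pool clones and 3 among 1050 GMP pool clones, and none of them reached its pool level in any library. The 5 clones at 10-fold or more above the pool were GFP_Barcode_68354, GFP_Barcode_2523, GFP_Barcode_148344, mCHERRY_2_Barcode_896021 (14.4-fold) and GFP_Barcode_9096 (12.2-fold). All of these but GFP_Barcode_148344 were below 1000 CPM in the pool given, so for those the rule fixed a rise of 10-fold or more. GFP_Barcode_9096 was at or above the pool given in 9 of 15 recipients. The remaining 5 clones ranged from 2.90-fold for GFP_Barcode_34023 to 6.14-fold for GFP_Barcode_85168.

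One-mouse clones were mostly abundant before transplantation. The median pool level was 5985 CPM for the 10 LSK and 3176 CPM for the 4 GMP one-mouse clones, against 142 and 156 CPM over all pool clones of the same libraries. At 1000 CPM or more of their pool were 11 of 14 one-mouse clones, 5 of 6 clones large in 2 mice and 19 of 28 large in 3 or more. Of the clones never large, 396 of 2208 were (17.9%). Clones large in 2 mice had pool medians of 1442 CPM (LSK, n = 3) and 10905 CPM (GMP, n = 3). Clones large in 3 or more mice had pool medians of 1542 CPM (LSK) and 2976 CPM (GMP). The mixed pool, which the rule did not use to choose them, held the 14 clones at a median of 0.5145 of their level in the single-origin pool, close to 0.506 over the 1283 pool clones at 100 CPM or more. GFP_Barcode_68354 was farthest from that ratio at 0.857. Each pool was 1 library, so these levels have no replicate error.

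In 12 of the 14 clones the leading library was marrow, and in GFP_Barcode_68354 and GFP_Barcode_34023 it was spleen. The leading tissue was 10-fold or more above the other tissue of the same mouse in 10 clones, and in 10 the other tissue lay below the pool given. The mean of both tissues reached 10000 CPM for GFP_Barcode_148344 (164055 CPM) and GFP_Barcode_68354 (14976 CPM), and for no other of the 14. A comparison at like size comes from clones large in 3 or more mice, in the 72 cases where such a clone peaked between 10000 and 20000 CPM in a mouse. Marrow was higher in 49 of these cases (68.1%), and the tissues were 10-fold or more apart in 22 (30.6%). For clones large in 2 mice, marrow was higher in 6 of 8 cases in this range and the tissues were 10-fold or more apart in 4. For the 12 one-mouse clones that peaked in this range, marrow was higher in 11 and the tissues were 10-fold or more apart in 10. Of those 12, 6 led in the marrow of Ptprca recipients of LSK cells. The cases compared share mice and clones and were not matched by host, by cells given or by size within the range. The differences were not tested.

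Away from the leading mouse, marrow was also the higher tissue in most cases. Where a one-mouse clone was at 100 CPM or more in either tissue of another mouse, marrow was higher in 89 of 115 cases (77.4%). Over all other pool clones below the minimum, marrow was higher in 1134 of 1450 cases (78.2%). The hosts contributed unequally to these totals. In Ptprca mice marrow was higher in 57 of 69 cases (82.6%) for the one-mouse clones and 955 of 1128 (84.7%) for the others. In NSG mice it was higher in 32 of 46 cases (69.6%) and 179 of 322 (55.6%). These differences were not tested.

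The leading mice numbered 9 of 23. Ptprca mice led for 8 clones and NSG mice for 6. Every Ptprca recipient of LSK cells led for at least 1 clone, with 2, 3 and 1 for mice 1, 2 and 3. Of the other groups, 1 of 4 NSG recipients of LSK cells, 1 of 4 recipients of GMP cells in each host, 1 of 4 Ptprca and 2 of 4 NSG recipients of both led for any. Large pool clones of every kind numbered 14 ± 1 in the marrow and 9 ± 1 in the spleen of Ptprca recipients of LSK cells (SD, n = 3). In NSG recipients of LSK cells they numbered 6.75 ± 1.26 and 6.50 ± 1.29 (SD, n = 4). In Ptprca recipients of both they numbered 14 ± 1.63 and 14.25 ± 1.26 (SD, n = 4), and 1 one-mouse clone led there. NSG recipients of both had 14.33 ± 1.53 in marrow (SD, n = 3) and 10.5 ± 3 in spleen (SD, n = 4), and 3 one-mouse clones led there. Recipients of GMP cells had 10.25 ± 0.957 and 9.5 ± 0.577 in Ptprca mice (SD, n = 4). In NSG mice they had 9.75 ± 2.36 and 9.25 ± 0.957 (SD, n = 4), and 1 one-mouse clone led in each host. The part of the number of large clones in where one-mouse clones led was not tested. For 7 of 14 clones the next mouse had the same host and the same cells as the leading mouse, and for 9 the same host. A group of 1 host and 1 kind of cells was 3 or 4 mice among the 15 LSK or 16 GMP recipients. The hosts were nearly equal in number, at 11 Ptprca and 12 NSG mice, and the counts were not tested against these shares.

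The minimum divided clones of nearly equal size. Just inside were mCHERRY_2_Barcode_205626 at 10194 CPM (95% interval by Wilson 10110 to 10279), mCHERRY_2_Barcode_588934 at 10537 CPM and mCHERRY_2_Barcode_345275 at 10618 CPM. Just outside were GFP_Barcode_123081 at 9898 CPM with 8511 CPM in its next mouse, mCHERRY_2_Barcode_494733 at 8893 CPM with 153 CPM, and GFP_Barcode_39656 at 8733 CPM with 6479 CPM. mCHERRY_2_Barcode_494733 was farther apart from its next mouse than 12 of the 14 one-mouse clones were from theirs. With a minimum of 20000 CPM, GFP_Barcode_148344 and GFP_Barcode_68354 remained of the 14, and with 5000 CPM 7 remained.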

How the data were processed

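Barcodes were amplified from genomic DNA and sequenced as 96 samples, 2 PCR duplicates for each of 45 mouse tissues and 3 pools. The authors deposited CPM values in 1 table per host, with barcodes filtered and duplicates collapsed, per the labels; how is not given in the sources used here. Bowtie 1.2.2 and R 3.6 were used, per the submitters' processing notes. The labels' extraction protocol describes loading sorted cells on a droplet chip although the molecule is genomic DNA, and how DNA was prepared is unclear. Barcodes that 1 table does not list were set to 0 there. Values were whole multiples of the smallest value of their column (100%, within 0.01 of a read), which was taken as 1 read and gave the read numbers. Intervals (Wilson, 95%) and limits of 3 reads cover counting error only, since PCR reads are not independent molecules. Mouse 24 had spleen only. All 14 clones were named. The rule was applied with Python 3.11.15 and pandas 2.3.3 and checked on simulated data. The clones, rule and comparisons were chosen with earlier results of these data known. Alternatives were other minima, tissues, scalings, pool requirements, recipients and mice left out; leaving out the 8 libraries with stray barcodes was added after seeing the data.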

Additional observations from a re-analysis of the deposited data

Results flagged for a closer look

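The values below describe groups of 4 mice in which the gap between 1 mouse and its nearest neighbour took up more than 0.829 of the group's range. They are no test, since the clones were chosen for being high in 1 mouse, and the 1 in 20 groups that chance flags elsewhere is no reference here. Of 13 cases read, each 1 clone in 1 tissue of 4 mice, 8 passed this limit. For mCHERRY_2_Barcode_205626 in the marrow of its leading group the gap took up 0.218 of the range. Groups of 3 mice were not read. They include the marrow of Ptprca recipients of LSK cells, where 6 clones led, and of NSG recipients of both, where 2 led. The ratio of gap to range was 1 in both marrow and spleen for GFP_Barcode_148344 (mouse 9), 0.957 in spleen for GFP_Barcode_68354 (mouse 9), 0.987 in spleen for GFP_Barcode_34023 (mouse 21), 0.969 in marrow for mCHERRY_2_Barcode_345275 (mouse 18) and 0.965 in marrow for mCHERRY_2_Barcode_588934 (mouse 14). The spleen of GFP_Barcode_148344 was outside the leading library, as were 2 further spleens. These were 0.998 for GFP_Barcode_2523 (mouse 23) and 0.874 for mCHERRY_2_Barcode_896021, where mouse 24 and not the leading mouse 21 was apart.

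Reads of 12 of the 14 clones appeared above 3 reads in mice that did not receive their leukaemia. GFP_Barcode_148344 reached 503 CPM in the marrow of mouse 8, above its level in every recipient except mouse 9. The other clones stayed at or below 16.1 CPM. These highest values were 16.1 CPM for GFP_Barcode_68354, 8.27 for GFP_Barcode_86073, 7.64 for mCHERRY_2_Barcode_205626, 6.12 for GFP_Barcode_9096, 3.79 for GFP_Barcode_85168, 2.16 for GFP_Barcode_34023, 1.67 for mCHERRY_2_Barcode_588934, 1.39 for GFP_Barcode_12105, 1.27 for GFP_Barcode_814, 0.941 for mCHERRY_2_Barcode_896021 and 0.691 for GFP_Barcode_61835.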

How the results depend on the processing

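The number of one-mouse clones depended on the rule. The main rule gave 10 LSK and 4 GMP clones, 1 large in both tissues and a median pool level of 3790 CPM. A minimum of 5000 CPM gave 16 LSK clones, 2 large in both tissues and 1483 CPM. One of 20000 CPM gave 7 LSK clones, 1 GMP clone and 1131 CPM. Marrow alone gave 8 GMP clones and 3486 CPM, and spleen alone 5 LSK clones, 3 GMP clones and 3047 CPM. The mean of both tissues gave 6 LSK clones, 0 GMP clones and 893 CPM. Scaling to the clone's own library gave 19 LSK clones and 4083 CPM. Recipients of 1 origin alone gave 3 GMP clones and 3474 CPM, and recipients of both alone 4 LSK clones, 0 large in both tissues and 2321 CPM. Without the 8 libraries with stray barcodes there were 3 GMP clones and the median was 3497 CPM. Leaving out each mouse in turn gave 12 to 15 clones, 0 to 2 large in both tissues (0 without mouse 9, 2 without mouse 16) and medians of 2883 to 6278 CPM (the highest without mouse 1 or mouse 14). Dropping the pool requirement, or keeping the 3 barcodes set aside, changed none of these. The same clones were not always counted: 7, 2 and 10 of the 14 remained with 5000 CPM, 20000 CPM and own-library scaling, and 13 without the 8 libraries. Marrow alone kept 12 of the 14, spleen alone 3 and the mean of both tissues 2. Recipients of 1 origin alone kept 10, and recipients of both alone kept 4. Clones large in both tissues have no count for 1 tissue or for the mean. The 2 PCR duplicates of each tissue and pool were collapsed in the tables used here, so their spread could not be measured, and a mouse gave each tissue once.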

Other observations

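The LSK reads in the marrow of mouse 8, which was given GMP cells, resembled the marrow of mouse 9 in composition. They made up 0.191% of that library. GFP_Barcode_148344 was 26.4% of them, GFP_Barcode_100907 17.1%, GFP_Barcode_29850 16.1%, GFP_Barcode_1859 15.6% and GFP_Barcode_7785 11.7%, against 28.9%, 17.9%, 16.96%, 16.3% and 11.8% of all reads in the marrow of mouse 9. No other mouse held GFP_Barcode_148344 as a leading clone. How these reads came to be in the library of mouse 8 was not tested.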
